A study of Mus musculus with 14 samples.

Results

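The 10 genes H2-K1, H2-D1, B2m, Tap1, Tap2, Tapbp, Psmb8, Psmb9, Psmb10 and Nlrc5 make up the core of the machinery that shows peptides from inside the cell to CD8 T cells. They were chosen by name, with earlier results of these data known, and all 10 were found among the 21152 genes of the deposited table. They were followed in tumours that mice carried of LLC1, a Lewis lung carcinoma cell line, in 14 libraries of 4 groups. The groups were MYCi975 (4 libraries), TMP195 (3 libraries), both compounds combined (3 libraries) and the DMSO vehicle (4 libraries). MYCi975 is a compound that inhibits the MYC transcription factor, while TMP195 blocks histone deacetylases of class IIa. Tumour-bearing mice received each single agent at 50 mg/kg, and treatment lasted 16 days in all groups. Not given in the sources used here are the doses within the combination, the strain, age and genotype of the host mice, and whether each library is a mouse of its own. The tests therefore measure a spread between libraries that may be partly technical. The material was a dissociated whole tumour from 1 cell line, per the series' design text, or an enriched tumour population, per the labels' protocols. Values are expression on a log2 scale after a variance-stabilising transformation (VST), with a floor of 4.05 for genes without reads. A difference of 1 unit is close to 2-fold for genes far above the floor.

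MHC class I molecules are built from a polymorphic heavy chain, which H2-K1 and H2-D1 encode, and the light chain beta-2 microglobulin, which B2m encodes. Peptides are made by proteasomes, moved into the endoplasmic reticulum by the TAP transporter and loaded with the help of tapasin. Interferon gamma induces most of this machinery, NLRC5 drives class I promoters, and leukocytes use all of it at high levels. Bulk tumour RNA mixes cancer and immune cells, and in such RNA fewer cells of a type and less RNA per cell cannot be told apart.

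The promoters of these genes are shown because the genes moved together across libraries, as described further on. RefSeq (build GRCm38.p6) gave a window of 250 bases before to 50 bases after the start for 8 of the 10 genes, all but Tap2 and Nlrc5, and the first of 2 windows is shown for H2-K1. Capitals mark letters that match, on either strand, the interferon-stimulated response element (ISRE, searched as GAAA, any 2 bases, GAAA) or its short form GAANNGAAA, the gamma-activated site TTCNNNGAA, the NF-kappaB-like GGAANNNCC, the Y box CCAAT or the X2-like TGACGC. The windows are chr17:34000284-34000583 (minus strand) for H2-K1, chr17:35262844-35263143 (plus) for H2-D1 and chr2:122147437-122147736 (plus) for B2m. Those of Tap1 and Psmb8 are chr17:34187306-34187605 (plus) and chr17:34197945-34198244 (plus). The windows of Tapbp, Psmb9 and Psmb10 were searched too but are not printed.
H2-K1: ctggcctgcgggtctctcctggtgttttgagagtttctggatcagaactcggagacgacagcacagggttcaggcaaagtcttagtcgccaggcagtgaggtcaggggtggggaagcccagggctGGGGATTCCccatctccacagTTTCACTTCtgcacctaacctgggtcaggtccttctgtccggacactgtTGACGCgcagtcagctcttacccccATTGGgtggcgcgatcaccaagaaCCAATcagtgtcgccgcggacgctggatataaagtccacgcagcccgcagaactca
H2-D1: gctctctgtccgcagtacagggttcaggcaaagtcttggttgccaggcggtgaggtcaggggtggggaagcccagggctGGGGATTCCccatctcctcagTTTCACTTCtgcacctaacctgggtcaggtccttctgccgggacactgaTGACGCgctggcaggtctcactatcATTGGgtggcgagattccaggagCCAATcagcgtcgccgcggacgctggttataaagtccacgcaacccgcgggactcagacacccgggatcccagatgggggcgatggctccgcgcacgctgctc
B2m: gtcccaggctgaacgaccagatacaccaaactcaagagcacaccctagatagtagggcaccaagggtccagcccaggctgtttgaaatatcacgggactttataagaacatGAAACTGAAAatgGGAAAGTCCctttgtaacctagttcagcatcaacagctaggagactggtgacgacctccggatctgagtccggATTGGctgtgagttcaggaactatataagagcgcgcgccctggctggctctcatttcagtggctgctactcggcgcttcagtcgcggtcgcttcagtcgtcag
Tap1: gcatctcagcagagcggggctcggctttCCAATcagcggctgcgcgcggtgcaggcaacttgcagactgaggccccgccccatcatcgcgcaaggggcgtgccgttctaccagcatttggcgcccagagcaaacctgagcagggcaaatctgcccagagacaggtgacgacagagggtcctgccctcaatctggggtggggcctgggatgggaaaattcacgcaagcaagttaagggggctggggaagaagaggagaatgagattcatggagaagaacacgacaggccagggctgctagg
Psmb8: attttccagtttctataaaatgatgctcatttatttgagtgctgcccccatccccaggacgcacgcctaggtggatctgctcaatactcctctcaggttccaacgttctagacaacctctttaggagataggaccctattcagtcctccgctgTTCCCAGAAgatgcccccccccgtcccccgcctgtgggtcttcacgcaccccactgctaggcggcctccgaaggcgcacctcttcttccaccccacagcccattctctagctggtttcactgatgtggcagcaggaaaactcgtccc

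The heavy chain windows of H2-K1 and H2-D1 held the same run of marked letters in the same order. This run was an NF-kappaB-like match, the short ISRE form, TGACGC and a Y box on each strand, with the short ISRE at -104 in H2-K1 and -150 in H2-D1 relative to the annotated start. These positions depend on which start is annotated, since the short ISRE was at -90 in the second H2-K1 window. The letters TATAAA lay at position 22, past the annotated start, in the H2-K1 window shown and at -26 in H2-D1. B2m held the full ISRE letters at -139, beside an NF-kappaB-like match, and was the only 1 of the 8 genes to do so. Psmb8 alone held the gamma-activated site letters, at -97. The Y box was in 6 of the 8 genes, against 37.4% of the 32851 RefSeq promoter windows of the same length. The other shares of all windows were 3.44% for the ISRE, 7.52% for its short form, 8.30% for the gamma-activated site, 18.5% for GGAANNNCC and 7.40% for TGACGC. Some further matches were counted without capitals: an NF-kappaB-like form of GGG, any 5 bases and CC, which overlaps GGAANNNCC, was in 5 genes (50.8% of all windows), TATAAA in 4 (13.6%) and TGACGT in none (7.51%). Psmb10 held none of the letters searched, with or without capitals. The short ISRE form was added after the sequences were seen. A match is a description of letters and does not show binding.

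Of the 10 genes, 7 lie on chromosome 17, B2m lies on chromosome 2, and Psmb10 and Nlrc5 lie on chromosome 8. Psmb9, Tap1, Psmb8 and Tap2 are neighbouring coding genes in that order. The starts of Psmb9 and Tap1 are 225 bases apart on opposite strands, so that their windows share 275 bases with the same letters. The Y box at -222 in the Tap1 window is the same 5 bases as the one at -8 in the Psmb9 window. Related class I genes resemble each other. Of the 31-base words in H2-K1 transcripts 22.8%, and of those in H2-D1 transcripts 26.7%, occur in other genes of the GENCODE M21 annotation. These words were found in 36 other genes for H2-K1 and 704 for H2-D1, so class I likeness need not account for all of them. The pair shared 11.1% of the H2-K1 words and 13.8% of the H2-D1 words, so the split of reads between them is uncertain. For the other 8 genes the shared part was at most 4.62% (Tapbp), and it was 0 for B2m, Psmb9, Psmb10 and Nlrc5.

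No gene of the 13711 tested passed an adjusted p of 0.05 in any of 6 comparisons, by limma with Benjamini-Hochberg adjustment. All 3 treatments were set against vehicle, and the combination also against either agent alone. The last comparison was the interaction, the combination minus TMP195 difference less the MYCi975 minus vehicle difference. They share libraries with each other, so their values for a gene are not independent. Read depth is unknown, and libraries had between 880 and 2954 genes at the floor, the most in MYCi975 replicate 2. The leukocyte marker Ptprc, which encodes CD45, averaged 10.85 ± 0.88 with MYCi975, 10.84 ± 0.53 with TMP195, 10.04 ± 0.36 with the combination and 10.60 ± 0.30 with vehicle (SD, n = 4, 3, 3 and 4 libraries). Among epithelial markers, the keratins Krt8 and Krt18 lay between 7.84 and 8.88 in every library, and Cdh1 lay between 5.57 and 6.30. Epcam was at the floor in 4 libraries, 1 in each group.

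**Figure D1:**
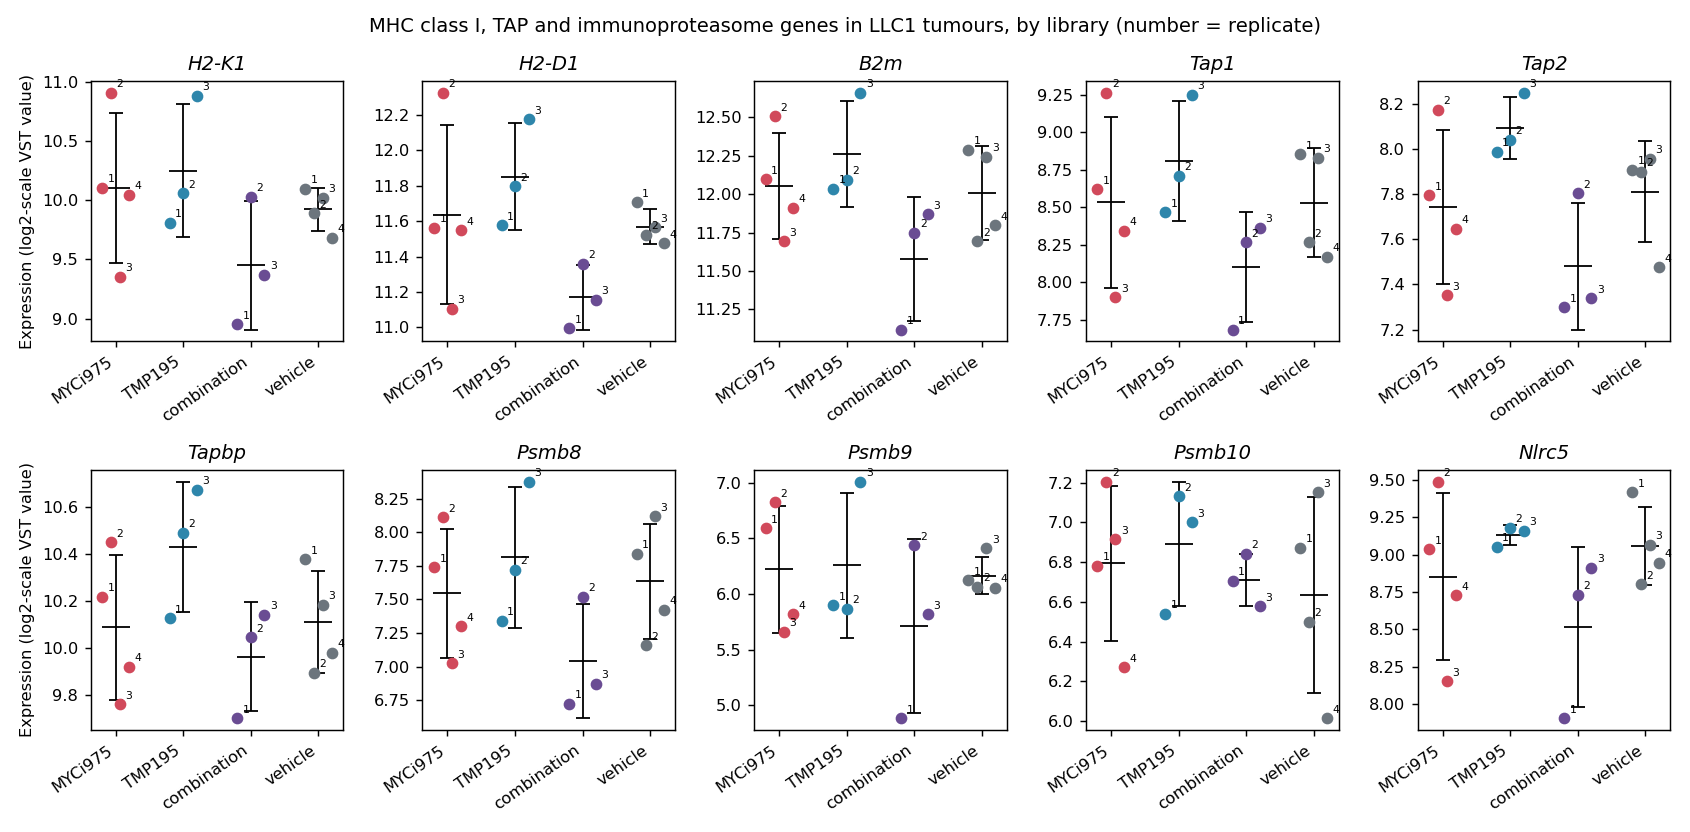
Expression of each of the 10 genes in each library (log2-scale VST value, vertical axis, with its own range in each panel) by group; numbers give the replicate, and bars show the mean and SD (n = 4, 3, 3 and 4 libraries for MYCi975, TMP195, combination and vehicle). Combination replicate 1 is the lowest library in 9 of 10 genes, and MYCi975 replicate 2 is among the 3 highest in all 10.

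The group mean was highest with TMP195 in all 10 genes and lowest with the combination in 9 of them, all but Psmb10. In 8 of the 10 genes, however, every gap between neighbouring group means was smaller than the largest within-group SD. The exceptions were B2m, where the combination lay 0.43 below the next group against a largest SD of 0.40, and Tapbp, where TMP195 lay 0.32 above the next group against 0.31. That SD can belong to a group other than the pair compared, and neighbours did not overlap in 2 of these genes. For H2-D1 the 3 combination libraries all lay below the 4 vehicle libraries, as in 3.27% of all genes. For Tap2 the 3 TMP195 libraries all lay above the 4 vehicle libraries, as in 2.4% of all genes. The order of the groups is a description of means. Vehicle was the tightest group in 6 of the 10 genes.

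The heavy chain gene H2-K1 stood at 10.11, 10.91, 9.35 and 10.05 in MYCi975 replicates 1 to 4, at 9.81, 10.06 and 10.88 in TMP195 replicates 1 to 3, at 8.95, 10.03 and 9.37 in combination replicates 1 to 3 and at 10.10, 9.89, 10.02 and 9.68 in vehicle replicates 1 to 4. MYCi975 replicate 2 and TMP195 replicate 3 stood clear above the rest, combination replicate 1 was lowest, and all groups overlapped. H2-D1, the other classical heavy chain gene of the list, stood at 11.56, 12.32, 11.11 and 11.55 with MYCi975, at 11.58, 11.80 and 12.18 with TMP195, at 11.00, 11.36 and 11.16 with the combination and at 11.71, 11.52, 11.57 and 11.47 with vehicle. The same libraries were at the ends, and here every combination library lay below every vehicle and every TMP195 library. H2-D1 averaged 11.17 ± 0.18 with the combination and 11.57 ± 0.10 with vehicle (SD, n = 3 and 4), a difference of -0.40 (95% interval -0.87 to 0.08, limma adjusted p = 0.992).

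B2m, whose product every class I molecule needs, stood at 12.10, 12.51, 11.69 and 11.91 with MYCi975, at 12.04, 12.09 and 12.66 with TMP195, at 11.12, 11.75 and 11.87 with the combination and at 12.29, 11.69, 12.24 and 11.80 with vehicle. Combination replicate 1 lay well below the other 13 libraries, and the combination group overlapped vehicle and MYCi975 but not TMP195. The averages were 11.58 ± 0.40 with the combination and 12.26 ± 0.35 with TMP195 (SD, n = 3 each), a difference of -0.68 (unadjusted 95% interval -1.22 to -0.14, limma adjusted p = 0.998).

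Tap1 and Tap2 encode the paired chains of the peptide transporter. Tap1 stood at 8.62, 9.26, 7.90 and 8.34 with MYCi975, at 8.47, 8.71 and 9.25 with TMP195, at 7.68, 8.27 and 8.36 with the combination and at 8.85, 8.26, 8.83 and 8.17 with vehicle. Tap2 stood at 7.80, 8.17, 7.35 and 7.65 with MYCi975, at 7.99, 8.04 and 8.25 with TMP195, at 7.30, 7.80 and 7.34 with the combination and at 7.91, 7.90, 7.96 and 7.48 with vehicle. For both genes all combination libraries lay below all TMP195 libraries, and for Tap2 all TMP195 libraries lay above all vehicle libraries, though by a small margin (lowest 7.99 with TMP195, highest 7.96 with vehicle). Tap2 averaged 8.09 ± 0.14 with TMP195 and 7.81 ± 0.22 with vehicle, a difference of 0.28 (95% interval -0.13 to 0.69). Tapbp encodes tapasin, which bridges TAP and the class I molecule. It ran from 9.76 to 10.45 with MYCi975 (median 10.07), from 10.13 to 10.67 with TMP195 (median 10.49), from 9.70 to 10.14 with the combination (median 10.05) and from 9.90 to 10.38 with vehicle (median 10.08). All groups overlapped.

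Psmb8, Psmb9 and Psmb10 encode the catalytic subunits that replace the constitutive Psmb5, Psmb6 and Psmb7 products in the immunoproteasome. Psmb8 stood at 7.74, 8.11, 7.03 and 7.30 with MYCi975, at 7.34, 7.72 and 8.38 with TMP195, at 6.72, 7.52 and 6.87 with the combination and at 7.84, 7.16, 8.12 and 7.42 with vehicle. Psmb9 stood at 6.59, 6.83, 5.66 and 5.82 with MYCi975, at 5.90, 5.87 and 7.01 with TMP195, at 4.88, 6.44 and 5.82 with the combination and at 6.12, 6.07, 6.41 and 6.06 with vehicle. Both genes overlapped between all groups, and Psmb9 had the widest span of the 10 genes, 2.13 over the 14 libraries, with its lowest value less than 1 unit above the floor. Psmb10 stood at 6.78, 7.21, 6.92 and 6.27 with MYCi975, at 6.54, 7.13 and 7.001 with TMP195, at 6.71, 6.84 and 6.58 with the combination and at 6.87, 6.50, 7.15 and 6.01 with vehicle. Its pattern was another one: its lowest library was vehicle replicate 4, and the combination libraries lay inside the vehicle range. The constitutive counterparts varied less over the 14 libraries, with spans of 0.62 for Psmb5, 0.49 for Psmb6 and 0.61 for Psmb7, against 1.65 for Psmb8, 2.13 for Psmb9 and 1.19 for Psmb10.

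Nlrc5, the transactivator of class I genes, stood at 9.04, 9.49, 8.15 and 8.73 with MYCi975, at 9.05, 9.18 and 9.16 with TMP195, at 7.91, 8.73 and 8.91 with the combination and at 9.42, 8.80, 9.07 and 8.94 with vehicle. The TMP195 libraries were within 0.12 of each other, while the MYCi975 and combination libraries were spread widely. Nlrc5 averaged 8.52 ± 0.54 with the combination and 9.06 ± 0.26 with vehicle (SD, n = 3 and 4). Their difference of -0.54 (95% interval -1.12 to 0.04) had the smallest p of the 10 genes in this comparison (limma adjusted p = 0.992).

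With MYCi975 alone the genes stayed near vehicle. By limma, 0 of the 10 passed, against 0% of all 13711 genes, and the differences ran from -0.21 for Nlrc5 to 0.18 for H2-K1. There were 6 genes above 0 and 4 below, with a median of 0.02, against 51.7% of all genes above 0 and a median of 0.01 over all genes. The 95% interval of the Nlrc5 difference reached from -0.75 to 0.33 and that of H2-K1 from -0.46 to 0.82, so shifts within these bounds are not excluded. None of the 10 had an unadjusted p under 0.05, as did 253 genes above 0 (1.85%) and 204 below (1.49%). Leaving out MYCi975 replicate 2 brought the median to -0.15, and leaving out MYCi975 replicate 3 brought it to 0.14.

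With TMP195 alone all 10 differences from vehicle were above 0, against 50.8% of all genes, but none passed. By limma, 0 of the 10 were called, against 0% of all genes, and 0 had an unadjusted p under 0.05, against 202 of all genes above 0 (1.47%) and 179 below (1.31%). The differences ran from 0.07 for Nlrc5 and 0.09 for Psmb9 to 0.32 for Tapbp (95% interval -0.08 to 0.72) and 0.33 for H2-K1 (95% interval -0.36 to 1.02). Their median was 0.27, against 0.0036 over all genes. Tap2 was the only 1 of the 10 whose groups did not overlap, against 2.4% of all genes in that direction. The size rested on 1 library: without TMP195 replicate 3 the median was 0.06, and without TMP195 replicate 1 it was 0.42.

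With the combination 9 of the 10 genes lay below vehicle, against 50.3% of all genes, and none passed. By limma, 0 of the 10 were called, against 0% of all genes, with adjusted p between 0.992 and 0.996 and no unadjusted p under 0.05. Over all genes 285 above 0 (2.08%) and 185 below (1.35%) had one. The median difference was -0.43, against -0.0022 over all genes. Psmb8 had the lowest value, -0.60 (95% interval -1.24 to 0.05), followed by Nlrc5 at -0.54 and H2-K1 at -0.47 (95% interval -1.16 to 0.22). Psmb9, B2m, Tap1, H2-D1 and Tap2 lay between -0.45 and -0.33, Tapbp was at -0.15, and Psmb10 was at 0.07. H2-D1 was the only 1 whose groups did not overlap, against 3.27% of all genes in that direction. Without combination replicate 1 the same 9 genes were still below vehicle, but the median was -0.22.

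Set against the single agents, the combination was lower than TMP195 alone in all 10 genes, against 48.9% of all genes. By limma, 0 of the 10 were called, against 0% of all genes (adjusted p = 0.998 for each), and 7 had an unadjusted p under 0.05, against 2.74% of all genes in that direction. In order of their p these were Tap2 at -0.61 (95% interval -1.05 to -0.18), H2-D1 at -0.68 (-1.19 to -0.17) and B2m at -0.68 (-1.22 to -0.14). They were followed by Psmb8 at -0.77 (-1.47 to -0.08), Tapbp at -0.47 (-0.89 to -0.04), H2-K1 at -0.80 (-1.54 to -0.06) and Tap1 at -0.71 (-1.36 to -0.05). Nlrc5 was at -0.61, Psmb9 at -0.55 and Psmb10 at -0.18. In 5 genes, namely H2-D1, B2m, Tap1, Tap2 and Nlrc5, the groups did not overlap, against 6.36% of all genes in that direction. The median was -0.65, against 0.0056 over all genes. The 10 genes are strongly correlated with each other, as described below, so these counts do not stand for 10 separate observations. In each fit that left out 1 library, all 10 differences stayed below 0, with medians from -0.77 without combination replicate 2 to -0.47 without combination replicate 1.

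Against MYCi975 alone the combination was likewise below 0 in all 10 genes, against 49.8% of all genes, with 0 called by limma, against 0% of all genes. The range was -0.65 for H2-K1 (95% interval -1.34 to 0.04, limma adjusted p = 0.616) to -0.08 for Psmb10. The median was -0.45, against 0.0014 over all genes, and the smallest p was that of H2-D1, at -0.46 (95% interval -0.94 to 0.01). No gene of the 10 had an unadjusted p under 0.05, although 690 of all genes below 0 did (5.03%), and none had groups that did not overlap, against 3.97% of all genes in that direction. Without combination replicate 1 the median was -0.19, Tapbp was at 0.0060 and the other 9 genes stayed below 0.

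The interaction was below 0 in all 10 genes, against 49.8% of all genes, with a median of -0.64, against 0.0014 over all genes. It asks whether adding MYCi975 did the same on top of TMP195 as it did on top of vehicle. It ran from -0.98 for H2-K1 (95% interval -1.96 to -0.01) to -0.34 for Psmb10. H2-D1 was at -0.75 (-1.42 to -0.08) and B2m at -0.73 (-1.44 to -0.02), and these 3 genes had an unadjusted p under 0.05, against 3.05% of all genes in that direction. By limma, 0 of the 10 were called, against 0% of all genes, with adjusted p between 0.911 and 0.919. The median was -0.43 without MYCi975 replicate 2 and -0.82 without MYCi975 replicate 3.

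**Figure D2:**
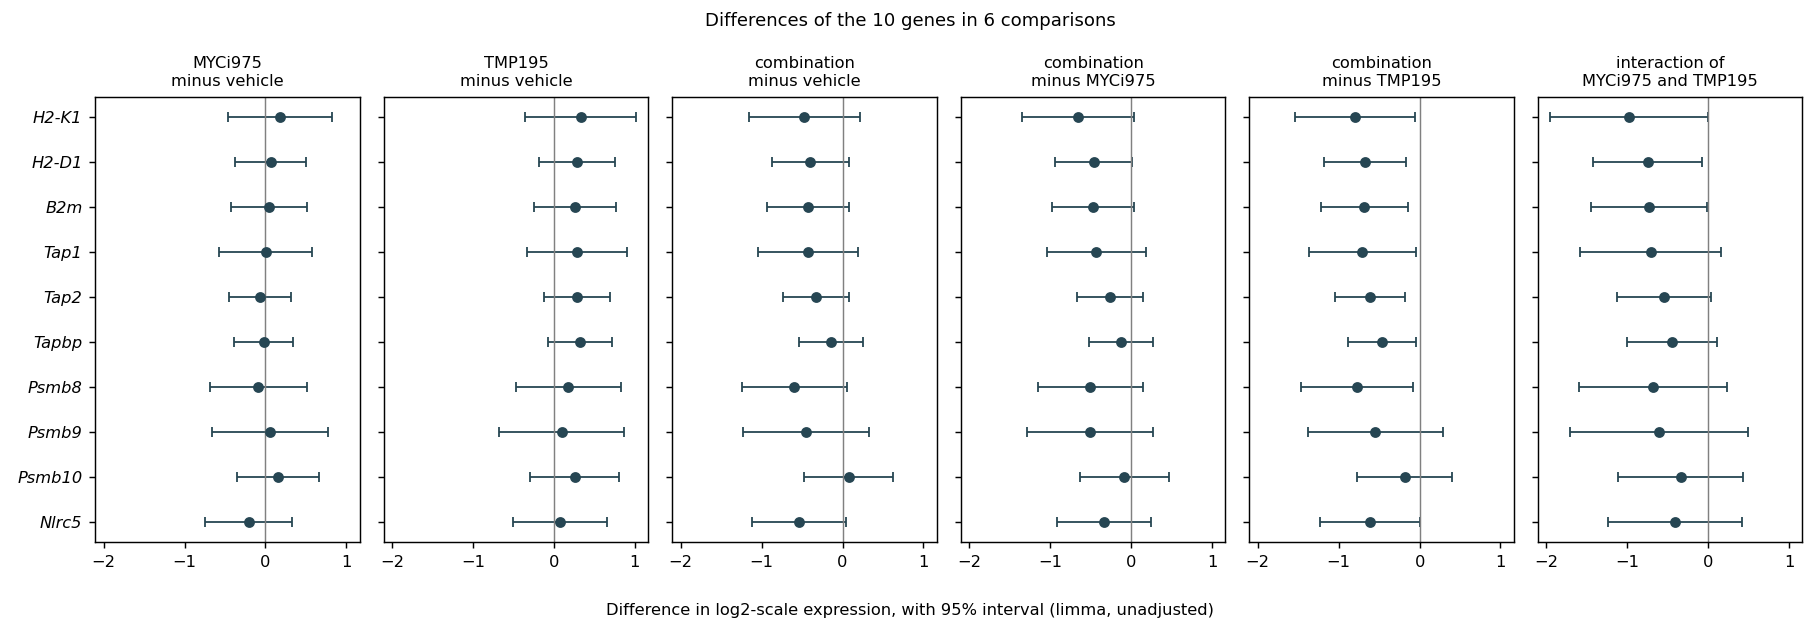
Differences of the 10 genes (log2-scale VST, horizontal axis) in the 6 comparisons, with unadjusted 95% intervals from limma. All points lie above 0 for TMP195 minus vehicle, with a median of 0.27, and all lie below 0 for combination minus TMP195, where 7 of the 10 intervals exclude 0 before adjustment.

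Markers of leukocytes were measured beside these genes. The mean of all 4 general leukocyte markers ran from 9.22 to 10.81 with MYCi975, from 9.40 to 10.26 with TMP195, from 8.69 to 9.16 with the combination and from 9.12 to 9.81 with vehicle, and none of the 4 was at the floor. The mean of the 4 neutrophil markers ran from 8.80 to 10.84, from 9.12 to 9.66, from 8.56 to 8.83 and from 8.65 to 9.33 in the same order of groups. The 6 macrophage markers ran from 7.98 to 9.07, from 8.20 to 9.16, from 7.94 to 8.31 and from 8.15 to 8.87. The highest combination library thus lay below the highest library of each other group for these 3 lists. The ranges were not separate, however, since the combination overlapped vehicle in all 3 lists. It also overlapped MYCi975 in the neutrophil and macrophage lists, and TMP195 in the macrophage list. The 6 T cell markers were low in every group, with list means from 5.12 to 6.21 with MYCi975, 5.43 to 6.10 with TMP195, 5.16 to 5.67 with the combination and 5.37 to 6.01 with vehicle. The mean of 5 NK cell markers ran from 5.24 to 6.02 with MYCi975, 5.47 to 6.38 with TMP195, 5.23 to 5.57 with the combination and 5.56 to 5.88 with vehicle. The T cell ranges overlapped between all groups, and so did the NK cell ranges. In the T cell and NK cell lists too, the highest combination library lay below the highest library of each other group. The mean of 5 dendritic cell markers ran from 5.53 to 5.82 with MYCi975, 5.63 to 5.98 with TMP195, 5.48 to 5.83 with the combination and 5.61 to 5.77 with vehicle. The mean of 3 B cell markers, close to the floor, ran from 4.05 to 4.64 with MYCi975, 4.14 to 4.73 with TMP195, 4.24 to 4.74 with the combination and 4.28 to 4.40 with vehicle. The highest combination library lay below the highest TMP195 library alone in the dendritic cell list, and above all other libraries in the B cell list. The epithelial list mean ran from 6.51 to 6.95 with MYCi975, 6.39 to 6.91 with TMP195, 6.83 to 6.96 with the combination and 6.54 to 6.80 with vehicle. The mean of 5 fibroblast markers ran from 10.04 to 10.65, 9.97 to 10.30, 10.13 to 10.73 and 9.46 to 10.41 in the same order. That of 3 endothelium markers ran from 6.72 to 7.39, 6.60 to 7.12, 6.55 to 6.89 and 6.77 to 7.04. The highest combination library was above all others in the fibroblast list and below the highest of each other group in the endothelium list. The mean of 4 skeletal muscle markers ran from 5.44 to 7.87 with MYCi975 and from 4.65 to 5.44 with TMP195. It ran from 4.39 to 6.35 with the combination and from 4.50 to 8.57 with vehicle, with up to 2 markers at the floor in a library. Its highest values were in vehicle replicate 3 (8.57) and MYCi975 replicate 2 (7.87).

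Across the 14 libraries 9 of the 10 genes followed Ptprc, with Pearson's r from 0.78 for Tap2 to 0.94 for H2-D1 and Spearman's rho from 0.79 for Tap2 to 0.95 for Psmb8. The permutation p-values, adjusted over the 20 relations computed, were at most 0.00137 for r and 0.00147 for rho in these 9 genes. The smallest p that the 100000 resamples can give, before adjustment, is 1e-05. Psmb10 was the exception, with r = 0.48 (adjusted permutation p = 0.0838) and rho = 0.53 (adjusted permutation p = 0.0505). When MYCi975 replicate 2 and TMP195 replicate 3, whose Ptprc values were the 2 farthest from its median, were left out, r was 0.72 to 0.92 in the 9 genes and 0.22 for Psmb10. Within groups, that is for deviations from the group means, r was 0.80 to 0.95 in the 9 genes and 0.50 for Psmb10. With Ptprc as a term in the fit, an alternative chosen after the data were seen, the median difference was -0.067 for combination minus vehicle, 0.080 for combination minus MYCi975, -0.16 for combination minus TMP195 and -0.016 for the interaction. It was 0.14 for TMP195 minus vehicle, and these 5 medians lie nearer to 0 than those without the term. Because Ptprc followed 9 of the 10 genes, its term can take up part of their group differences whatever the cause. Ptprc may itself differ with treatment, and the cause was not tested. The median of MYCi975 minus vehicle lay farther from 0, at -0.13 with the term against 0.02 without it, with 9 of the 10 genes below 0.

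**Figure D3:**
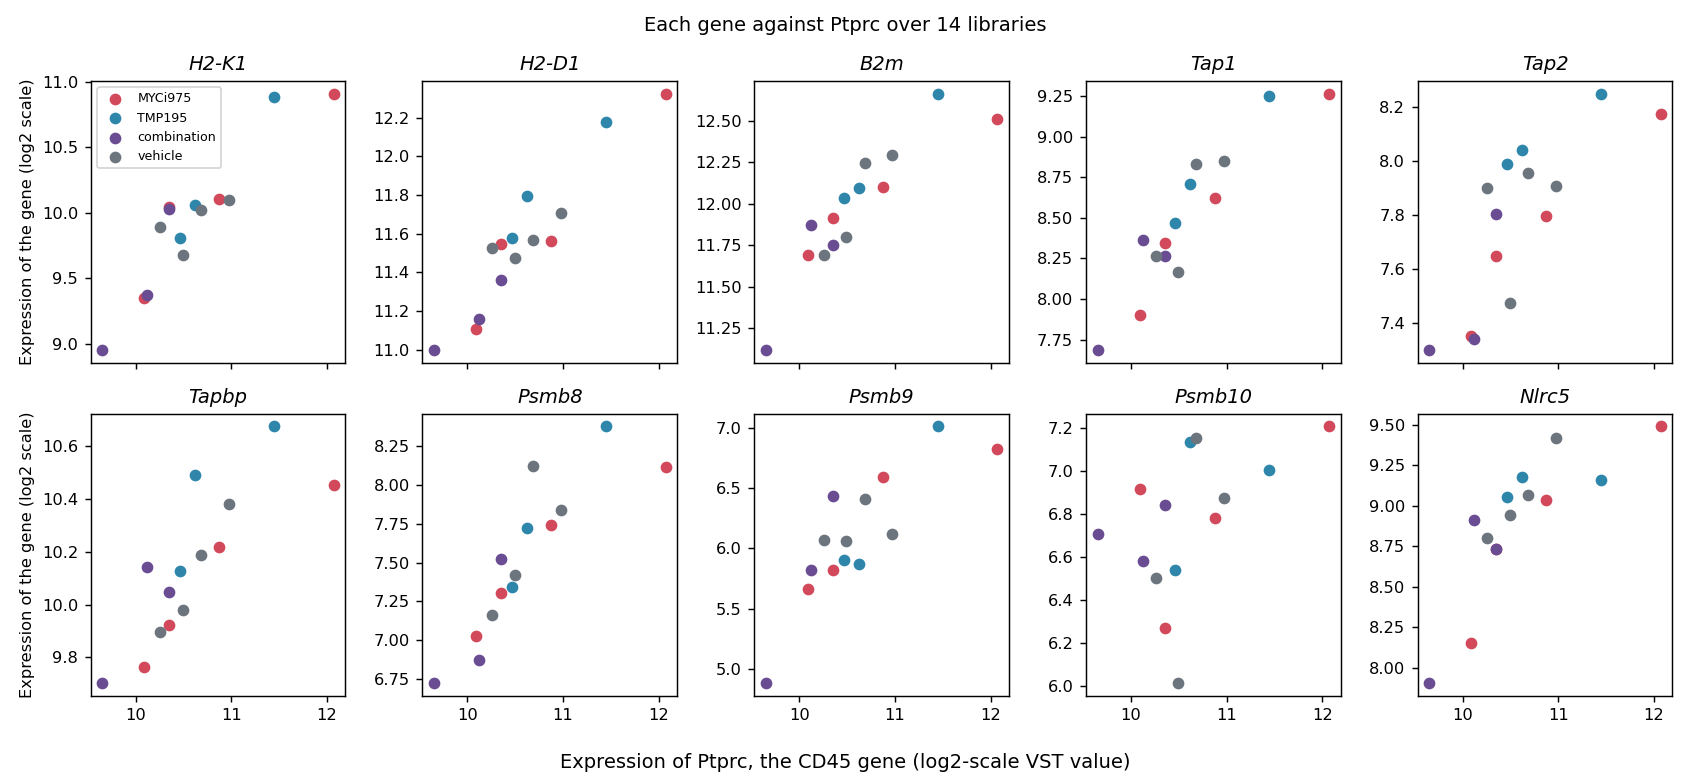
Expression of each of the 10 genes (vertical axes, log2-scale VST) against that of Ptprc, the CD45 gene (horizontal axes, log2-scale VST); each point is 1 of 14 libraries, coloured by group. Pearson's r is between 0.78 and 0.94 in 9 genes and 0.48 for Psmb10.

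The 10 genes also followed each other. Over deviations from the group means in the 14 libraries, 25 of the 45 pairs had Pearson's r above 0.8 and 40 had r above 0.5. The share of such pairs among all tested genes was not computed. Close likeness was not limited to the 10 genes. Of 11553 other genes compared, 176 had r above 0.9 with their profile, described below. The closest pairs were B2m with Tap1 (r = 0.96), Tap1 with Tapbp (r = 0.95) and H2-K1 with H2-D1 (r = 0.94), the last of which share sequence. The neighbours Psmb9 and Tap1, whose promoter windows overlap, had r = 0.81, and Tap1 with Psmb8 had r = 0.88. Whether the overlap of the windows bears on these values was not tested. The lowest pair was Psmb10 with Nlrc5 (r = 0.29). The median r of Psmb10 with the other 9 was 0.50, against 0.76 to 0.88 for the other genes. Each immunoproteasome gene followed the constitutive subunit it replaces only weakly, with r of 0.27 for Psmb8 with Psmb5, 0.33 for Psmb9 with Psmb6 and 0.29 for Psmb10 with Psmb7. Other pairings among these genes were closer, namely Psmb10 with Psmb6 (r = 0.78, above its r with any of the other 9 genes), Psmb9 with Psmb7 (r = 0.72) and Psmb8 with Psmb7 (r = 0.70). These r values are descriptions over the same 14 libraries.

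**Figure D4:**
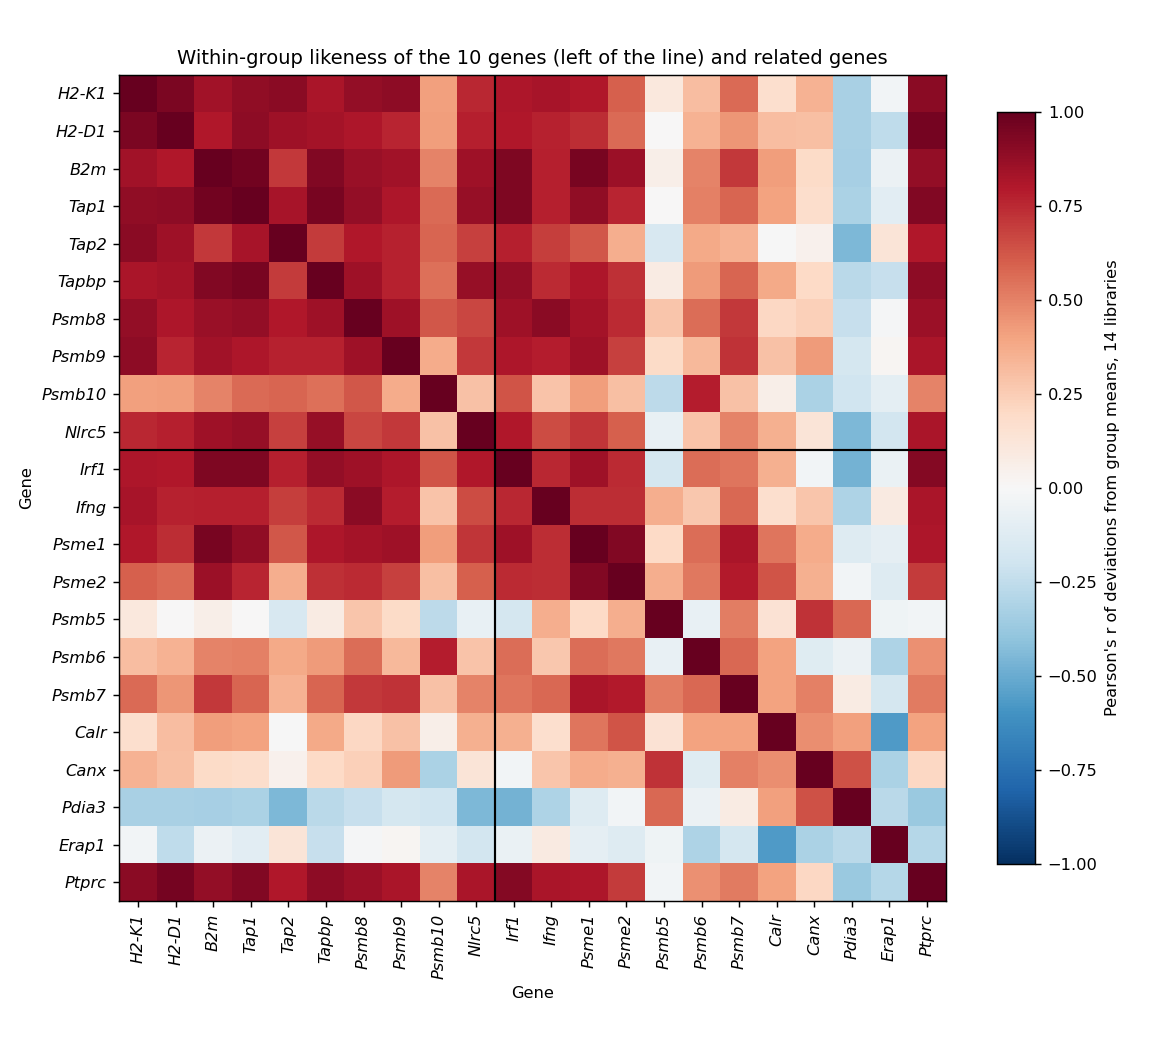
Pearson's r (colour scale from -1 to 1) between the 10 genes and the related genes named on the axes, over deviations from group means in 14 libraries. Of the 45 pairs among the 10 genes 25 have r above 0.8, and Psmb10 stands out with a median r of 0.50. The share of such pairs among all tested genes was not computed.

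Of the wider class I pathway, 56 of 57 listed genes were tested, all but H2-M2. By limma none was called in any comparison. For combination minus vehicle 11 lay above 0 and 45 below (median -0.16), for combination minus MYCi975 11 and 45 (median -0.19), and for combination minus TMP195 10 and 46 (median -0.20). Of all tested genes, 50.3%, 49.8% and 48.9% lay below 0 in these 3 comparisons. For MYCi975 minus vehicle the counts were 32 above and 24 below (median 0.03), and for TMP195 minus vehicle they were 34 and 22 (median 0.06). Of all tested genes, 51.7% and 50.8% lay above 0 there. The unadjusted p was under 0.05 for 3 genes below 0 in combination minus vehicle, 8 in combination minus MYCi975 and 4 in combination minus TMP195. Of all tested genes, 1.35%, 5.03% and 2.74% lay below 0 with such a p in the same comparisons.

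The list holds 8 other tested class I heavy chain genes. All 8 lay below 0 against vehicle (median -0.48), against MYCi975 (median -0.68) and against TMP195 (median -0.67) in the combination. Of all genes 50.3%, 49.8% and 48.9% lay below 0 in the same comparisons. H2-T24 was at -0.62 against vehicle (95% interval -1.21 to -0.03), -0.86 against MYCi975 (-1.45 to -0.27, limma adjusted p = 0.611) and -0.97 in the interaction (-1.81 to -0.14). H2-T23, which encodes the Qa-1 molecule seen by NK cell receptors, was at -0.83 against TMP195 (95% interval -1.47 to -0.20, limma adjusted p = 0.998). H2-Q10 was at -1.08 in combination minus MYCi975 (95% interval -1.80 to -0.35, limma adjusted p = 0.611) and at 0.62 in MYCi975 minus vehicle (-0.05 to 1.29). As with H2-K1 and H2-D1, reads of these similar genes can be split uncertainly. The 14 constitutive proteasome subunits lay nearer to 0, with medians of -0.12, -0.05 and -0.08 for the combination against vehicle, MYCi975 and TMP195. Most of them were below 0 as well, namely 12, 9 and 9 of the 14 in the same order.

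Among genes upstream, Ifng, the cytokine that induces this pathway, was at -0.79 in combination minus vehicle (95% interval -1.52 to -0.06, limma adjusted p = 0.992). It averaged 4.70 ± 0.43 with the combination and 5.49 ± 0.45 with vehicle, close to the floor. Irf1, which encodes a factor that binds ISRE letters, was at -0.48 in the same comparison. The kinase gene Jak2 was at -0.38 in combination minus TMP195 (95% interval -0.71 to -0.05) and at -0.56 in the interaction (-0.996 to -0.126). Psme1 and Psme2, which encode the interferon-inducible proteasome activator, were at -0.38 and -0.35 in combination minus vehicle. In MYCi975 minus vehicle Nfkb1, an NF-kappaB subunit gene, was at 0.28 (95% interval 0.01 to 0.55), while Ciita, the class II counterpart of Nlrc5, was at -0.52 and Psmb5 at -0.18. In TMP195 minus vehicle Rfxank, a subunit of the factor that binds X boxes, was at 0.46 (95% interval 0.10 to 0.83) and the kinase gene Jak1 at 0.24, while the proteasome genes Psmb2 and Psma6 were at -0.23 and -0.20. Few pathway genes lay above 0 in the combination. Those with the smallest p were Nfya (0.28) and Nfkb1 (0.18) against vehicle, Rfx5 (0.25) and Psmb4 (0.11) against MYCi975, Nfya (0.32) and Psme3 (0.26) against TMP195, and Psmb4 (0.25) and Psmb5 (0.22) in the interaction. None of these genes passed the adjustment.

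A profile of the 10 genes, namely the mean of their deviations from group means each divided by its SD, was set against the rest of the pathway. Irf1 (r = 0.93), Psme1 (r = 0.86), Ifng (r = 0.81) and Psme2 (r = 0.70) followed it, as did the 8 other heavy chain genes (r from 0.60 to 0.97, median 0.88). The chaperone genes Calr (r = 0.29) and Canx (r = 0.20), the peptide loading oxidoreductase gene Pdia3 (r = -0.35) and the peptide-trimming Erap1 (r = -0.09) did not. The 14 constitutive proteasome subunits ranged from -0.42 to 0.62 with a median of 0.02, among them Psmb5 (r = 0.02), Psmb6 (r = 0.50) and Psmb7 (r = 0.62). Several of these values rested on MYCi975 replicate 2. Without it r was 0.36 for the heavy chain gene H2-M3 and 0.54 for H2-Q10, and the 8 heavy chain genes had a median of 0.85. Without it r was also 0.26 for Psmb6, 0.32 for Psmb5, 0.03 for Calr and 0.37 for Erap1, and the 14 constitutive subunits had a median of 0.28. Over the 11553 genes compared the median was -0.0044, and 176 had r above 0.9.

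**Figure D5:**
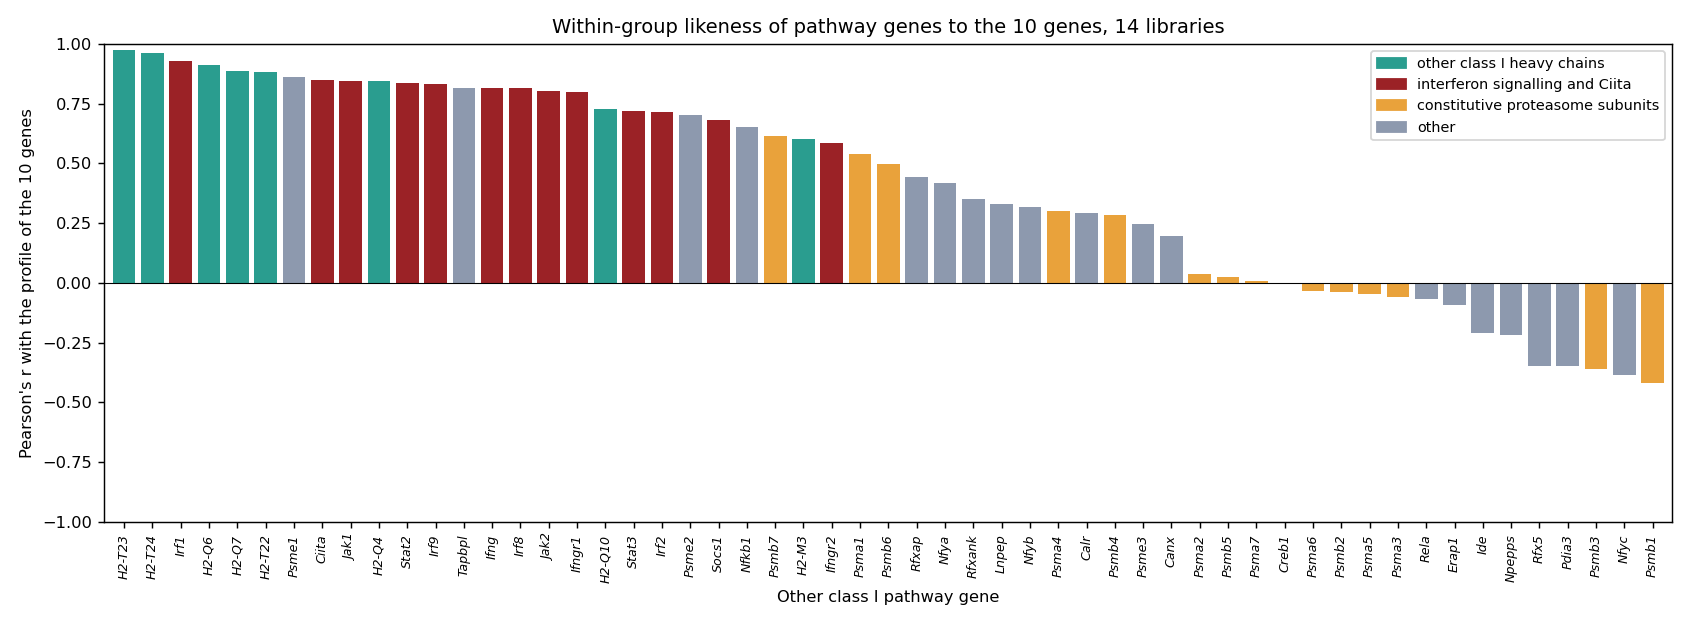
Pearson's r of the pathway genes named on the horizontal axis with the profile of the 10 genes (vertical axis), over deviations from group means in 14 libraries, coloured by role. Other class I heavy chains have a median of 0.88, and constitutive proteasome subunits a median of 0.02, which is 0.28 without MYCi975 replicate 2.

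The 10 genes most like this profile were Fcgr4 (r = 0.98), H2-T23, Igsf6, Gbp5, Irgm1, Mpeg1 and Pde7b (r = 0.97 each), and Samhd1, H2-T24 and Plaur (r = 0.96 each). Fcgr4 encodes a myeloid Fc receptor and Mpeg1 a macrophage pore protein, and Gbp5 and Irgm1 encode interferon-inducible GTPases. Which genes ranked at the top rested on MYCi975 replicate 2, since without it 2 of the 10 remained in the top 10, although their r was still 0.95 to 0.99. Single markers set against the profile differed, with r = 0.94 for Ptprc and r = 0.74 for Itgax of the dendritic cell list. The macrophage marker Adgre1 had r = 0.48, and the T cell markers Cd3e and Cd8a had r = 0.85 and r = 0.48. Closest to Nlrc5 alone were Tarm1 (r = 0.96), Nos2 (r = 0.93), Mcemp1, Pstpip1 and Cd274 (r = 0.91 each). Without MYCi975 replicate 2, Tarm1, Nos2 and Pstpip1 had ranks 1, 2 and 3, Mcemp1 rank 7 (r = 0.89) and Cd274 rank 11 (r = 0.87). Cd274 encodes the checkpoint ligand PD-L1 and Nos2 the inducible nitric oxide synthase.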

How the data were processed

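RNA of 14 LLC1 tumour libraries was sequenced from stranded total RNA kits, per the labels' protocols. The authors deposited 1 table of variance-stabilised log2-scale values for 21152 genes, per the file headers. The submitters' processing notes name Salmon and hg38, a human build, although the IDs are mouse Ensembl IDs, so no coordinates come from the table. Symbols were matched for 20264 IDs (95.8%). Values show no read steps, so the depth cannot be read and count models were left out. Genes with a mean more than 1 log2 unit above the floor of 4.05 were tested (13711). limma 3.58.1 in R 4.3.3 fitted 1 mean per group to all 14 libraries with trended empirical Bayes moderation (10 residual and 5.27 prior degrees of freedom). It gave 6 two-sided comparisons with Benjamini-Hochberg adjustment over all tested genes at 0.05, and was checked on simulated data. There, changes of 0.5 units were called in 2.99% (combination minus TMP195) to 25.4% (MYCi975 minus vehicle) of the genes given them. Changes of 1 unit were called in 53.7% to 77.6% in the same comparisons. The interaction was not simulated. A count of 0 called genes therefore does not exclude differences near 0.5 units or near 1 unit.

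The 10 genes, the other lists and the tests were chosen with earlier results of these data known. Text names the 10 genes, pathway genes with the 2 smallest p per direction in each comparison or fixed by name, and the genes most like the profile or Nlrc5. One gene named by this rule, with its relations to the 10 genes, is not reported here. Correlations used permutation tests with 100000 resamples (scipy 1.17.1). Alternatives were no filter, a filter at 2 units, robust moderation or none along a trend, median centring, quantile normalisation, library weights, fewer groups in the fit, the replicate number as a term, and leaving out each library. The Ptprc term, the short ISRE form and the shared 31-base words, used in place of a protein comparison that was not run, were added after the data were seen. Promoter windows are from RefSeq (GRCm38.p6), with positions counted from the annotated start.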

Additional observations from a re-analysis of the deposited data

Results flagged for a closer look

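In 4 of the 46 groups of 4 libraries examined, among the 10 genes, 12 pathway genes named by rule and Ptprc, 1 library stood far from the other 3, where chance gives about 1 in 20. Tap2 was 7.48 in vehicle replicate 4, against 7.90 to 7.96 in the other vehicle libraries. Without that library the TMP195 minus vehicle difference of Tap2 was 0.17, against 0.28 with it. Erap1 was 8.74 in the same library, against 9.38 to 9.46 in the others. Pdia3 was 11.93 in vehicle replicate 1, against 12.30 to 12.36. Psmb7 was 7.87 in MYCi975 replicate 2, against 7.78 in the other MYCi975 libraries, a gap of under 0.1 units.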

How the results depend on the processing

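No gene was called by limma in any comparison under any of the alternatives, so the call counts did not depend on them. Of the recomputed differences of the 10 genes 1376 kept their sign and 54 did not, 30 of the 54 in MYCi975 minus vehicle, whose differences were small. No difference from combination minus TMP195 or from the interaction turned sign when 1 library was left out.

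For MYCi975 minus vehicle, leaving out 1 library gave ranges of -0.088 to 0.43 for H2-K1, -0.16 to 0.24 for H2-D1, -0.11 to 0.17 for B2m, -0.24 to 0.21 for Tap1, -0.21 to 0.062 for Tap2 and -0.14 to 0.087 for Tapbp. The ranges were -0.28 to 0.083 for Psmb8, -0.14 to 0.25 for Psmb9, -0.048 to 0.33 for Psmb10 and -0.42 to 0.027 for Nlrc5. For TMP195 minus vehicle they were -0.012 to 0.19 for Nlrc5, -0.10 to 0.41 for Psmb8 and -0.28 to 0.29 for Psmb9. For combination minus vehicle the range of Psmb10 was -0.13 to 0.25. For combination minus MYCi975 the ranges were -0.26 to 0.053 for Psmb10 and -0.23 to 0.0060 for Tapbp.

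In MYCi975 minus vehicle, Tap1 was -0.0072 with median centring, -0.043 with quantile normalisation and -0.15 with library weights, under which H2-D1 was -0.072 and B2m -0.056. Psmb9 was -0.072 with library weights in TMP195 minus vehicle. The cause was not tested. Nothing in the labels says whether equal replicate numbers pair libraries. Deviations of same-numbered libraries correlated at -0.30 to 0.21 (median 0.04, 19 pairs of libraries). Those of differently numbered libraries correlated at -0.25 to 0.34 (median -0.0036, 54 pairs). Such values cannot show whether libraries share a cage or a day. With the replicate block 0 genes were called, and the combination minus vehicle difference of Psmb10 was -0.12.

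With Ptprc as a covariate, chosen after the data were seen, the median of the 10 genes was -0.13 for MYCi975 minus vehicle (0.02 without the covariate), 0.14 for TMP195 minus vehicle, -0.067 for combination minus vehicle, 0.080 for combination minus MYCi975, -0.16 for combination minus TMP195 and -0.016 for the interaction. Since Ptprc follows most of these genes, this covariate can take up group differences whatever their cause. Single genes that turned sign with it in MYCi975 minus vehicle were H2-K1 (-0.0092), H2-D1 (-0.061), B2m (-0.082), Tap1 (-0.17) and Psmb9 (-0.13). In TMP195 minus vehicle they were Psmb9 (-0.094) and Nlrc5 (-0.067), in combination minus vehicle Tapbp (0.078), and in combination minus TMP195 Psmb9 (0.079) and Psmb10 (0.075). In combination minus MYCi975 they were Tap1 (0.14), Tap2 (0.030), Tapbp (0.20), Psmb8 (0.042), Psmb9 (0.12), Psmb10 (0.17) and Nlrc5 (0.13). In the interaction they were Tap1 (0.029), Psmb8 (0.028), Psmb9 (0.21) and Nlrc5 (0.20).

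Of the recomputed correlations with Ptprc, 159 stayed on their side of the threshold, and that of Psmb10 with Ptprc passed it in 1 case, without vehicle replicate 4 (r = 0.57, adjusted permutation p = 0.0422). Groups of 3 or 4 libraries and unknown depth limit what these data can show. The planned protein comparison was not run.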
